A study of Mus musculus with 8 samples.

Results

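The interferon response and antigen processing genes are 36 genes that type I and type II interferons are known to induce, chosen by name and measured in mouse sciatic nerve. The list held 5 transcription factors, 5 sensors of RNA and DNA, 16 antiviral effectors, the ubiquitin-like modifier Isg15 and its protease Usp18, 3 guanylate-binding proteins, 4 genes of antigen processing and presentation and the checkpoint ligand Cd274. Of the 18193 genes that the arrays could name through a probe set with 1 symbol, 34 were members. Probe sets of 30 members passed the signal filter, which kept a probe set brighter than its own array's median in 2 or more of the arrays, and entered the tests among 12093 genes. Dhx58, Mx1, Mx2 and Oas3 did not pass it. The only probe set of Isg15 carries several symbols, so no value was given to Isg15, and Ifi44 was not analysed here.

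RNA came from 10 mm of nerve, taken as the distal stump 7 days after the sciatic nerve was cut at the notch or as the intact nerve of the other side. The 4 groups were cut nerve of c-Jun knockout mice (KO cut), cut nerve of control mice (CTRL cut), uncut nerve of knockout mice (KO uncut) and uncut nerve of control mice (CTRL uncut), with 2 arrays in each. Every array held nerves pooled from 4 or 6 adult mice, so differences between single mice could not be seen. The control genotype is given as WT; the sources used here name neither the knockout allele nor a Cre driver. Some labels name Schwann cells, the glia of the nerve, and others schwannoma cells, but the RNA was of whole segments. The 6 tested Schwann cell markers averaged between 11.23 and 12.14 on the log2 scale of the 8 arrays, and RNA of other cells was present, with skeletal muscle markers between 11.72 and 14.10. Whether fewer or more cells of a type, or less or more RNA per cell, lies behind a value from such RNA cannot be told apart.

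Interferons are secreted proteins whose receptors act through Jak kinases on Stat proteins. Cells release type I interferons on sensing viral or misplaced nucleic acid. Type I interferons act mainly through the interferon-stimulated response element (ISRE) of target genes, where Stat2 and Irf9 take part, and type II interferon through the gamma-activated sequence (GAS). In cut peripheral nerve, macrophages enter the distal stump and clear myelin debris together with Schwann cells, and macrophages are themselves rich in several of these genes.

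All values below are log2 expression values as the authors deposited them, a difference is between the means of 2 groups on that scale, and a gene was called where limma's Benjamini-Hochberg adjusted p over all 12093 genes was under 0.05. Jun, the targeted gene, read 10.39 and 10.80 in KO cut nerve and 11.88 and 11.96 in CTRL cut nerve. Its difference between the cut groups was -1.33 (SE 0.14, limma adjusted p = 0.00866), a call that was lost without CTRL cut replicate 1 or 2 (adjusted p up to 0.0631). In uncut nerve Jun read 9.62 and 9.59 in KO and 9.58 and 9.70 in CTRL nerve. Array medians lay between 6.59 and 6.65, and the correlation over the 12093 tested genes was 0.984 to 0.989 between replicates and 0.853 to 0.894 between cut and uncut arrays.

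No member was called between knockout and control nerve, whether cut or uncut. Of the 30 members tested, 0 were called between KO cut and CTRL cut nerve, where 1.09% of all tested genes were called. Between KO uncut and CTRL uncut nerve 0 of 30 members were called as well, and 0% of all genes. At an unadjusted p under 0.05, limma likewise gave 0 of 30 members in cut nerve, against 1041 of the 12093 genes, and 0 of 30 in uncut nerve, against 322 genes. The lowest adjusted p of a member in cut nerve was 0.614, that of Irf7. Leaving out any 1 array, or any other setting tried, gave 0 called members in both comparisons.

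The size of these differences can be bounded. The median difference of the members, KO minus CTRL, was 0.06 in cut nerve, beside -0.01 over all tested genes, and 0.08 in uncut nerve, beside 0.03. With the 4 dim members added, the medians were 0.06 and 0.08. In cut nerve 20 members lay higher in KO and 10 lower, and in uncut nerve 20 and 10. Leaving aside Ifi202b, the differences in cut nerve ran from -0.22 for Ifit1 to 0.43 for Irf7, and in uncut nerve from -0.25 for Ifi204 to 0.30 for Rsad2. The 95% interval stayed within 1 log2 unit on either side of 0, a 2-fold change, for 26 members in cut nerve and for 27 in uncut nerve. Changes inside these intervals were not resolved by 2 arrays per group: the median standard error of a member's difference was 0.15, against 0.12 over all genes.

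**Figure D1:**
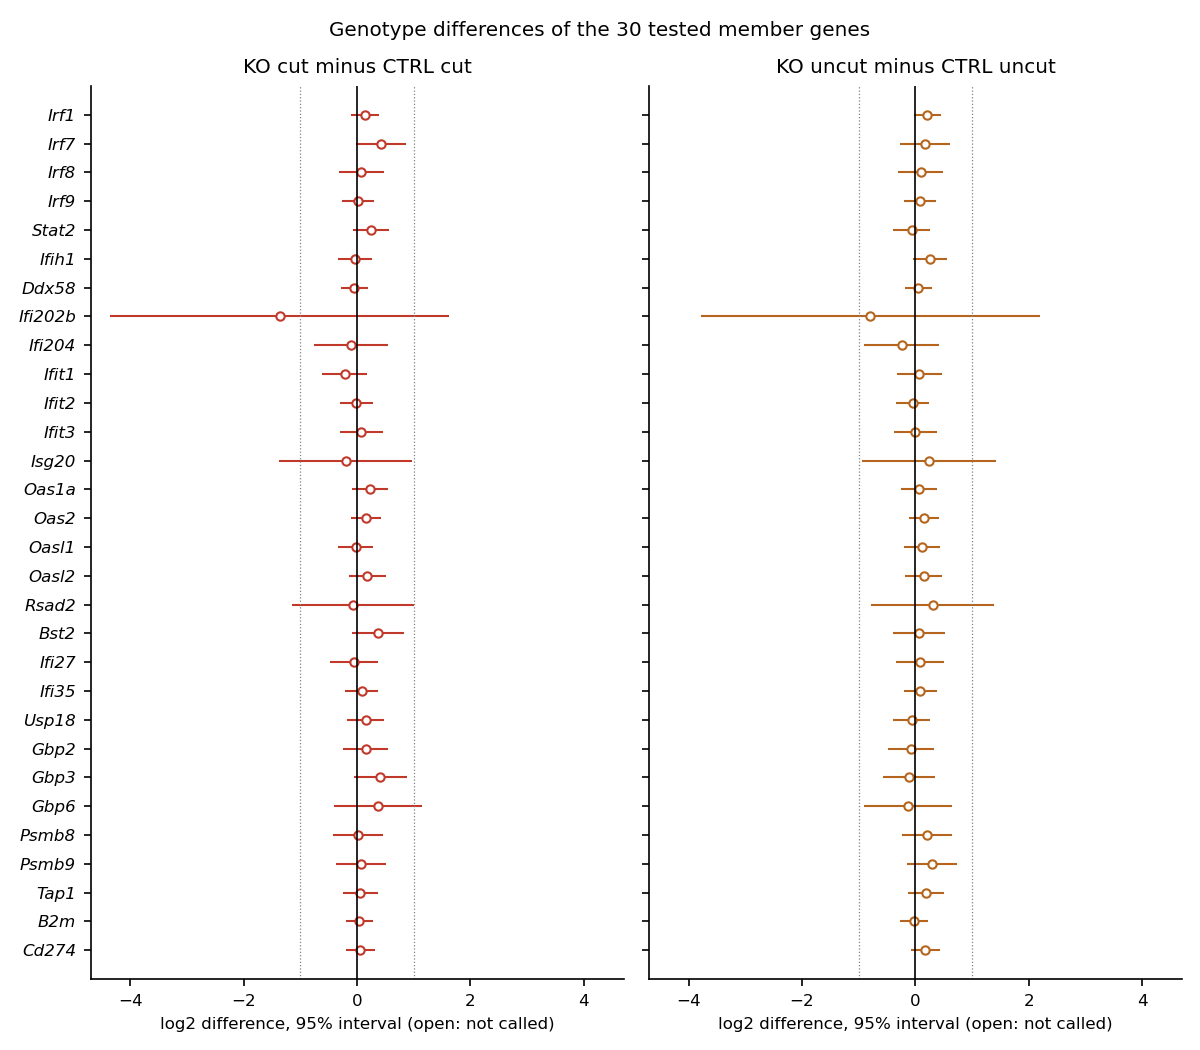
Difference between KO and CTRL nerve (log2) for each of the 30 tested members, in cut and in uncut nerve, with 95% intervals from limma; open symbols are not called. Every interval includes 0, and Ifi202b has the widest one, from -4.35 to 1.63 in cut nerve.

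The 6 members with the largest genotype difference in cut nerve that were called nowhere show how the arrays lay. Gbp3, a guanylate-binding GTPase of host defence, read 9.59 and 9.41 in KO cut nerve and 9.190 and 8.998 in CTRL cut nerve, a difference of 0.41 (SE 0.20, limma adjusted p = 0.677). Its relative Gbp6 read 8.57 and 8.90 in KO cut nerve and 8.44 and 8.29 in CTRL cut nerve, a difference of 0.37 (adjusted p = 0.908). For both GTPases the KO arrays lay above the CTRL arrays without overlap, by less than the gap between the replicates of CTRL uncut nerve, where Gbp3 read 9.02 and 9.66, beside 9.28 and 9.18 in KO uncut nerve. Stat2, the Stat protein particular to type I interferon receptors, read 7.11 and 7.10 in KO cut nerve and 6.76 and 6.96 in CTRL cut nerve, a difference of 0.24 (adjusted p = 0.764). In this probe set the groups did not overlap either. With so few arrays per group, groups can lie apart by chance. The share of all tested genes whose groups did so was not counted. A lack of overlap, here or below, is therefore not read as a change by itself. A second Stat2 probe set gave 0.07, and its 7.00 and 7.05 in KO cut nerve overlapped 6.89 and 7.02 in CTRL cut nerve. Ifit1, which binds foreign RNA, read 7.75 and 7.36 in KO cut nerve and 7.57 and 7.98 in CTRL cut nerve, with overlap (-0.22, adjusted p = 0.879). Isg20, an exonuclease that degrades viral RNA, read 8.18 and 7.52 in KO cut nerve and 8.19 and 7.91 in CTRL cut nerve, again with overlap (-0.20, adjusted p = 0.977).

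Ifi202b, a DNA-binding protein of the HIN-200 family, split the knockout samples by replicate number. It read 8.83 and 4.93 in KO cut nerve and 8.64 and 7.84 in CTRL cut nerve. In KO uncut nerve it read 8.06 and 5.04, against 7.41 and 7.29 in CTRL uncut nerve. The second KO array was thus low in both cut and uncut nerve, while the first KO array lay with the controls. Its genotype difference was -1.36 in cut nerve (limma adjusted p = 0.918) and -0.80 in uncut nerve, and neither was called. Both low arrays lay 2.25 below the lowest of the other 6, and of all 12093 tested genes Ifi202b was the only one whose values on these 2 arrays lay more than 1 log2 unit below all others; the next, Gabra3, had a gap of 0.756. No gene was high on both of them by that margin. Its relative Ifi204 showed no such gap, with 7.85 and 7.85 in KO cut nerve, 7.67 and 8.25 in CTRL cut nerve, 7.59 and 6.84 in KO uncut nerve and 7.24 and 7.69 in CTRL uncut nerve. A cause of the split was not tested.

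**Figure D2:**
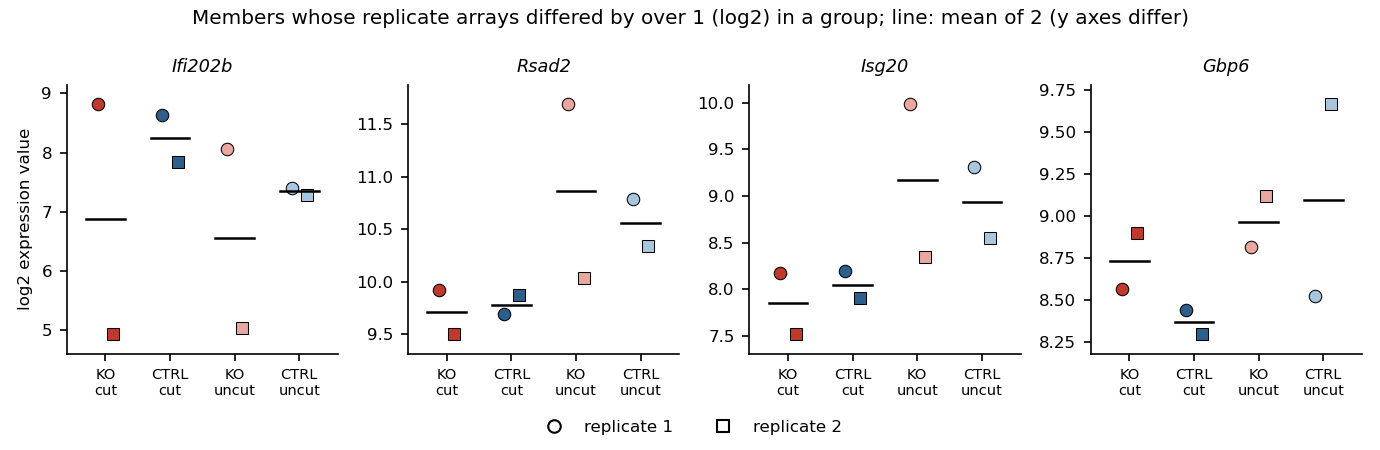
Log2 values of members with wide replicate spread on each of the 8 arrays, in the order KO cut, CTRL cut, KO uncut and CTRL uncut. Ifi202b lies at 4.93 and 5.04 on the second KO array of cut and of uncut nerve and between 7.29 and 8.83 on the other 6.

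Nerve cut changed a minority of the members, and 4 of them were called in both genotypes. In KO nerve 6 of 30 members, 20%, were called between cut and uncut nerve, against 36% of all tested genes: Irf8, Irf7, Oas1a, Oas2 and Bst2 were higher in cut nerve, and Ifi27 was lower. In CTRL nerve 5 of 30, 16.7%, were called, against 40.3% of all genes: Irf8, Oas1a, Oas2 and Oasl1 were higher, and Ifi27 was lower. By direction the background was 18.1% of all genes higher and 17.8% lower in KO nerve, and 22.8% higher and 17.5% lower in CTRL nerve. So the share of members called was below the background in both genotypes. The 4 shared genes were Irf8, Oas1a, Oas2 and Ifi27, and 25 of 30 members had the same sign of difference in both. The matching shares of all tested genes were not counted, so neither count is read as particular to the members. The counts rest in part on single arrays: without KO cut replicate 2 only 2 members were called in KO nerve, and without CTRL cut replicate 1 only 3 in CTRL nerve.

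The members' differences went both ways, with 16 higher and 14 lower in KO nerve and 19 higher and 11 lower in CTRL nerve. The median difference, cut minus uncut, was 0.02 in KO nerve and 0.07 in CTRL nerve, beside -0.00 and 0.05 over all tested genes. With the sign dropped, the median was 0.291 for members and 0.269 for all genes in KO nerve, and 0.256 for members and 0.298 for all genes in CTRL nerve. A difference over 2-fold was seen in 4 members in KO nerve (Irf8, Oas1a, Isg20 and Rsad2, of which the last pair was not called) and in 1 member in CTRL nerve (Irf8). Among all genes 11.8% passed that size in KO nerve and 12.9% in CTRL nerve.

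**Figure D3:**
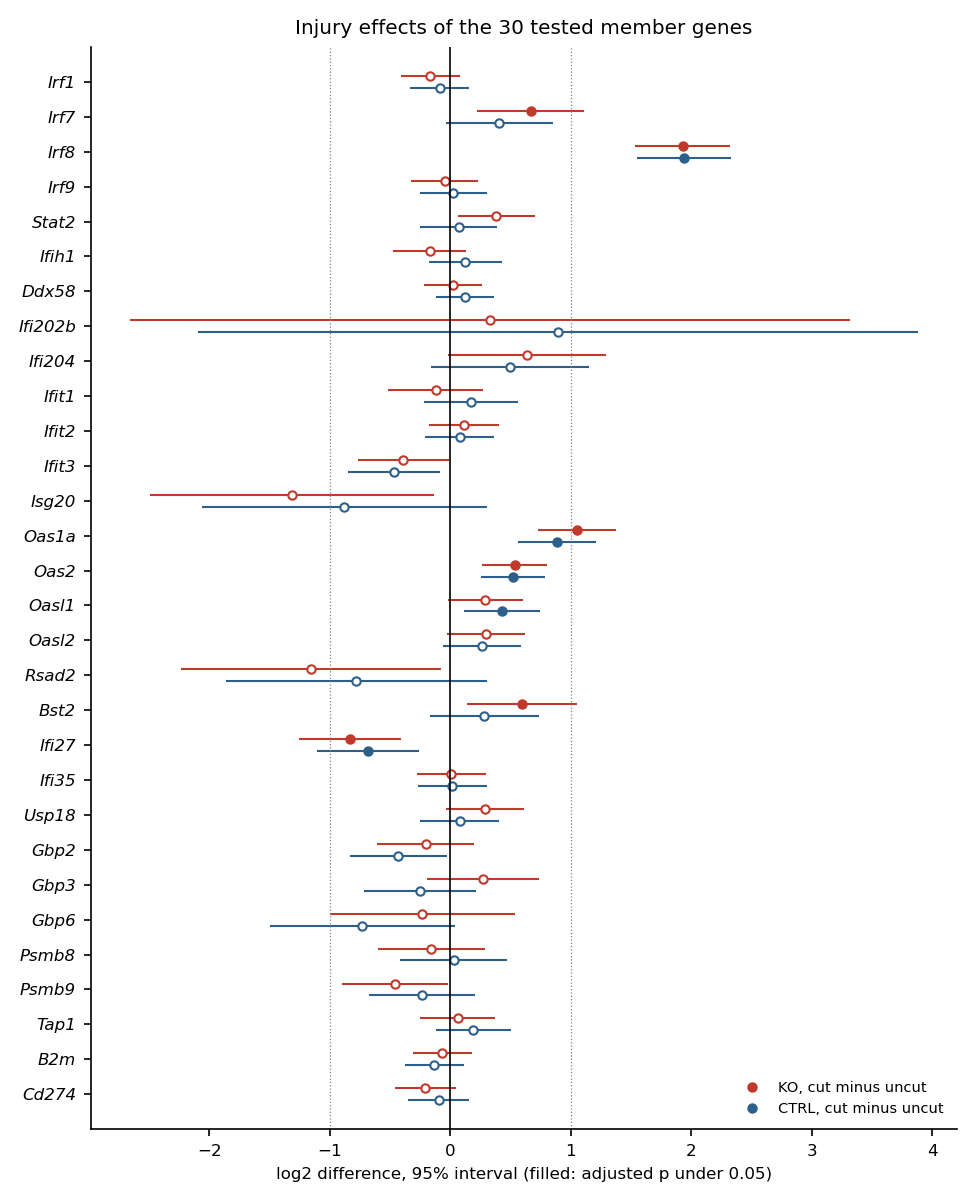
Difference between cut and uncut nerve (log2) for each tested member, in KO and in CTRL nerve, with 95% intervals from limma; filled symbols are called at an adjusted p under 0.05. Irf8 stands highest in both genotypes, at 1.93 in KO and 1.94 in CTRL nerve. Members lie on both sides of 0, with a median of 0.02 in KO and 0.07 in CTRL nerve.

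Among the transcription factors, Irf8, which directs the development of macrophages and some dendritic cells and is induced by type II interferon, had the largest rise of all members. It read 9.41 and 9.37 in KO cut nerve and 9.54 and 9.10 in CTRL cut nerve. In uncut nerve it read 7.55 and 7.38 in KO and 7.22 and 7.53 in CTRL nerve. All 4 cut arrays lay above all 4 uncut arrays. The difference was 1.93 in KO nerve (SE 0.17, limma adjusted p = 0.000141) and 1.94 in CTRL nerve (SE 0.17, adjusted p = 0.000118), and a second Irf8 probe set gave 1.79 and 1.68. These calls held in all 8 fits that left out 1 array. Over the same arrays 10 of the 12 tested macrophage and monocyte markers rose in KO nerve and 11 of 12 in CTRL nerve. Itgam, counted in both, passed the filter through cut arrays alone. The list averaged 10.67 and 10.80 in KO cut nerve and 10.78 and 10.79 in CTRL cut nerve, against 8.78 and 9.04 in KO uncut and 8.71 and 9.04 in CTRL uncut nerve. Cd68 rose by 3.48 in KO and 3.57 in CTRL nerve, and Mpeg1 by 3.32 and 3.24. The part of these cells in the rise of Irf8 was not tested.

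Irf7, the factor that amplifies type I interferon production, read 8.05 and 8.27 in KO cut nerve against 7.63 and 7.36 in KO uncut nerve. In CTRL nerve it read 8.02 and 7.46 after the cut and 7.36 and 7.29 without it. Cut lay above uncut in both genotypes without overlap. It rose by 0.67 in KO nerve (SE 0.19, limma adjusted p = 0.0288), while the 0.41 in CTRL nerve was not called (adjusted p = 0.127), and the difference between the genotypes was not called (0.26, adjusted p = 0.997). The KO call was lost without KO cut replicate 2 (adjusted p = 0.142) or KO uncut replicate 2 (adjusted p = 0.147). Stat2 read 6.74 and 6.71 in KO uncut nerve and 6.61 and 6.98 in CTRL uncut nerve, so that in this probe set its cut arrays lay above its uncut arrays in KO nerve, by 0.38 (adjusted p = 0.0657, and 0.0372 without either CTRL uncut array), and overlapped them in CTRL nerve. The other probe set of Stat2 gave 0.19 in KO nerve and 0.34 in CTRL nerve (adjusted p = 0.215 and 0.0356 with probe sets as units). There the CTRL arrays read 6.89 and 7.02 after the cut and 6.65 and 6.57 without it, with no overlap. Irf1, an early target of type II interferon, and Irf9, the DNA-binding partner of Stat2, were not called, with differences between -0.17 and 0.03.

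The oligoadenylate synthetases make a second messenger that activates RNase L, which degrades RNA. Oas1a read 9.02 and 9.08 in KO cut nerve and 8.94 and 8.71 in CTRL cut nerve. Without a cut it read 8.11 and 7.90 in KO and 7.80 and 8.08 in CTRL nerve. The cut and uncut arrays did not overlap, and it rose by 1.05 in KO nerve (SE 0.14, limma adjusted p = 0.00108) and by 0.88 in CTRL nerve (adjusted p = 0.00198); both calls held under every setting tried. Oas2 read 7.94 and 8.12 in KO cut nerve, 7.96 and 7.78 in CTRL cut nerve, 7.53 and 7.46 in KO uncut nerve and 7.28 and 7.42 in CTRL uncut nerve. It also stood higher on all cut arrays, by 0.53 in KO nerve (SE 0.11, adjusted p = 0.00939) and 0.52 in CTRL nerve (adjusted p = 0.00906). The KO call was lost without KO cut replicate 2 (adjusted p = 0.0633) or KO uncut replicate 2 (adjusted p = 0.0540), and the CTRL call without CTRL cut replicate 1 (adjusted p = 0.0530) or CTRL uncut replicate 1 (adjusted p = 0.0596).

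Oasl1, a synthetase-like protein that in mice holds back Irf7 translation, read 7.31 and 7.36 in KO cut nerve and 7.48 and 7.25 in CTRL cut nerve. In uncut nerve it read 7.11 and 6.98 in KO and 7.08 and 6.78 in CTRL nerve. Every cut array stood above every uncut array. Its difference was 0.29 in KO nerve (SE 0.13, limma adjusted p = 0.132) and 0.43 in CTRL nerve (adjusted p = 0.0366). The CTRL call was lost without KO cut replicate 1 or 2 (adjusted p = 0.0526 each), CTRL cut replicate 1 (adjusted p = 0.178) or CTRL uncut replicate 2 (adjusted p = 0.203). Oasl2 differed by 0.29 in KO and 0.26 in CTRL nerve and was not called. Oas3, which did not pass the filter, lay between 5.09 and 5.67 on the 8 arrays.

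Bst2, also called tetherin, holds budding virus particles at the cell surface. It read 9.02 and 8.83 in KO cut nerve against 8.53 and 8.13 in KO uncut nerve. In CTRL nerve it read 8.81 and 8.29 after the cut and 8.22 and 8.32 without it. The groups separated in KO nerve and overlapped in CTRL nerve. It rose by 0.60 in KO nerve (SE 0.20, limma adjusted p = 0.0479), against 0.28 in CTRL nerve (adjusted p = 0.284), with an interaction of 0.31 (adjusted p = 0.997). The KO call lay at the threshold and was lost without KO cut replicate 1 or 2, KO uncut replicate 2, or CTRL uncut replicate 1 or 2 (adjusted p up to 0.239), and also with no filter (adjusted p = 0.0530), with probe sets as units (adjusted p = 0.0566) and with median centring (adjusted p = 0.0523).

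Ifi27, a small membrane protein strongly induced by type I interferon, was the only member called lower after the cut. It read 11.07 and 10.66 in KO cut nerve and 11.17 and 10.69 in CTRL cut nerve. Uncut nerve gave 11.71 and 11.68 in KO and 11.60 and 11.63 in CTRL nerve. The cut arrays lay below the uncut ones without overlap, and in both genotypes the second cut array was the lower. It fell by 0.83 in KO nerve (SE 0.18, limma adjusted p = 0.0102) and by 0.69 in CTRL nerve (adjusted p = 0.0196), and a second probe set gave -0.79 and -0.67. The KO call was lost without KO cut replicate 2 (adjusted p = 0.0615), and the CTRL call without CTRL cut replicate 2 (adjusted p = 0.102), CTRL uncut replicate 1 (adjusted p = 0.0737) or CTRL uncut replicate 2 (adjusted p = 0.0818). The 6 tested endothelial markers averaged 8.54 and 8.56 in KO cut nerve against 8.91 and 8.93 in KO uncut nerve, and 8.38 and 8.59 in CTRL cut nerve against 8.54 and 8.71 in CTRL uncut nerve; the 6 Schwann cell markers averaged 11.33 and 11.36 in KO cut nerve against 11.87 and 12.05 in KO uncut nerve, and 11.23 and 11.32 in CTRL cut nerve against 12.13 and 12.14 in CTRL uncut nerve. The Schwann cell markers went both ways: 2 were called higher and 3 lower in KO nerve, and 1 higher and 3 lower in CTRL nerve. Their average is therefore not read as a change of the whole list. Of the endothelial markers 0 were called higher and 3 lower in KO nerve, and 0 higher and 1 lower in CTRL nerve. The part of either cell type in the fall of Ifi27 was not tested.

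**Figure D4:**
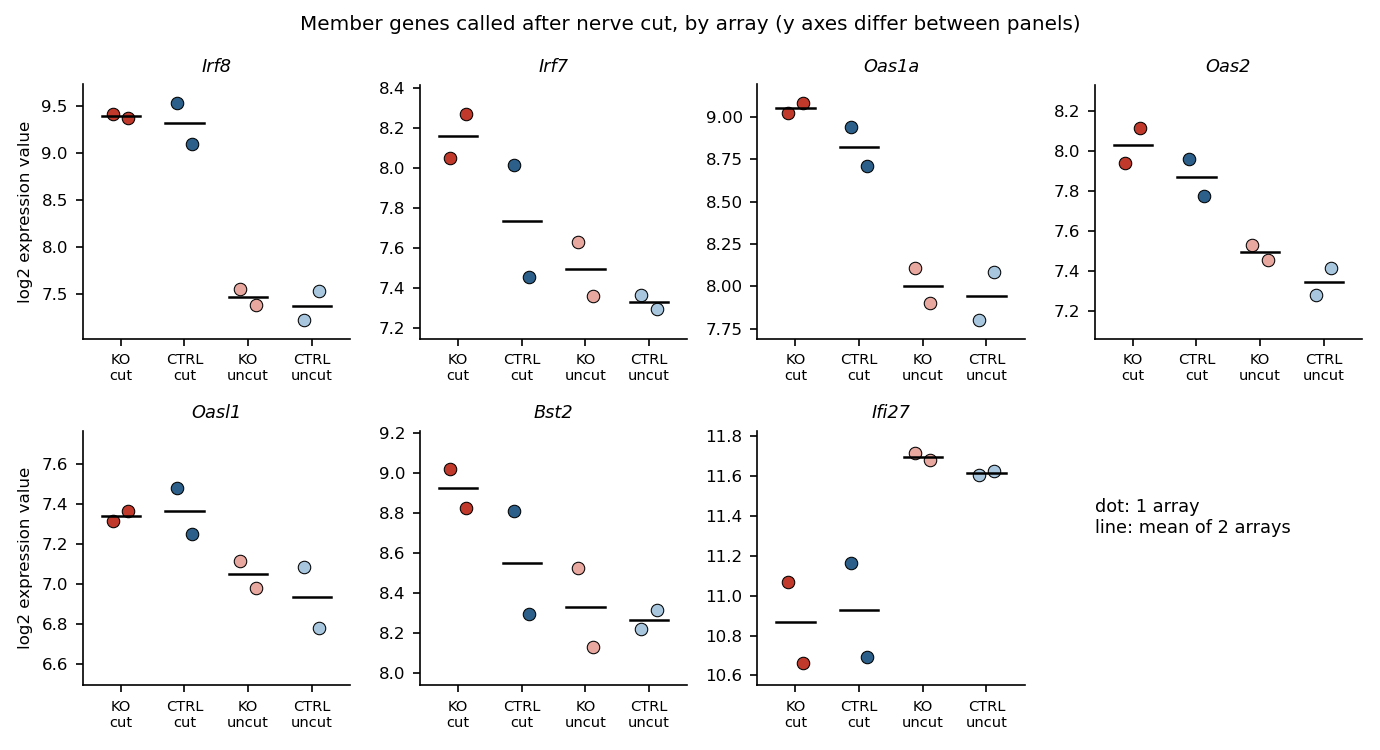
Log2 values of the 7 members called after nerve cut on each of the 8 arrays, in the order KO cut, CTRL cut, KO uncut and CTRL uncut. Irf8 and Oas1a show the clearest gap between cut and uncut nerve, with Irf8 from 9.10 to 9.54 in cut and from 7.22 to 7.55 in uncut nerve.

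The promoters of called members are shown because the list is defined by interferon induction, and they let the response elements be read directly. Windows of 250 bases before the start of the gene came from RefSeq (GRCm38.p6) and covered 28 of the 36 members in 35 windows. The letters GAAANNGAAA, the core of the ISRE read on both strands, were in a window of 11 of these 28 genes and in 2.98% of all 32851 windows of the table. The letters TTCNNNGAA of the GAS, which read alike on both strands, were in 8 of the 28 genes and in 7.02% of all windows. The member counts are by gene, and some genes have several windows, while the shares are by window. They are thus not in the same unit. Capitals below mark the matches. Each window is printed 5′ to 3′ on the strand of its gene: Irf8 at chr8:120736108-120736357 (+), Oas1a at chr5:120907526-120907775 (-) and Bst2 at chr8:71537473-71537722 (-).
Irf8: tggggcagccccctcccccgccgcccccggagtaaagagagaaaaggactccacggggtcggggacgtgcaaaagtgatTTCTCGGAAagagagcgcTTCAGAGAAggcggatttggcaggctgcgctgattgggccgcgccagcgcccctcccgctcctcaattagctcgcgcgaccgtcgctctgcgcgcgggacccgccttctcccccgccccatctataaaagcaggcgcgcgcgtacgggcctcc
Oas1a: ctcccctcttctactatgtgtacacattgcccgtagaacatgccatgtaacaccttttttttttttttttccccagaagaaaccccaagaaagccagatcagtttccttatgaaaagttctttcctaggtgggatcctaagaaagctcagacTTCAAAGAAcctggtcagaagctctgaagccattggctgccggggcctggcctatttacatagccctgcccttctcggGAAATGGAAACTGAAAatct
Bst2: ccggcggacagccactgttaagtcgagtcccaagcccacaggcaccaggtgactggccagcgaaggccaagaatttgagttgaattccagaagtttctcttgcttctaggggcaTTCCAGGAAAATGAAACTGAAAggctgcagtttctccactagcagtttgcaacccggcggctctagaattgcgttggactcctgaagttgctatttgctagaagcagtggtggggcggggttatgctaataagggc
In the Irf8 window the 2 GAS matches lie 171 to 163 and 153 to 145 bases before the start, with no ISRE match. In the Oas1a window a GAS match lies 98 to 90 bases before the start, and 2 ISRE matches that share bases lie 20 to 11 and 14 to 5 bases before it. In the Bst2 window a GAS match at 136 to 128 overlaps the first of 2 ISRE matches at 130 to 121 and 124 to 115. A match is a description of the letters in the window. The window of Irf7 and that of Oasl1 hold neither set of letters, like a second Irf8 window. Ifi27 and Oas2 had no window. Members not called after the cut held matches too: Ifit1, Ifit3 and Gbp3 each had 2 ISRE matches, and Stat2, Gbp2, Rsad2 and B2m each had 1. The uncalled members Ifi202b, Ifit2, Irf1, Isg20 and Psmb8 each had 1 GAS match.

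Rsad2 and Isg20 stood lower in cut nerve on every array of their genotype, spread widely in uncut nerve and were not called with all arrays. Rsad2, or viperin, makes a modified nucleotide that stops viral RNA synthesis, and is given here although it was singled out after its values were seen. It read 9.92 and 9.50 in KO cut nerve against 11.70 and 10.04 in KO uncut nerve, and 9.69 and 9.87 in CTRL cut nerve against 10.79 and 10.34 in CTRL uncut nerve. Isg20 read 9.99 and 8.34 in KO uncut nerve and 9.31 and 8.55 in CTRL uncut nerve, above its cut values given earlier. In each genotype the cut and uncut arrays of both genes did not overlap. The differences were -1.16 for Rsad2 in KO nerve (SE 0.46, limma adjusted p = 0.0898) and -0.78 in CTRL nerve (adjusted p = 0.217). For Isg20 they were -1.32 in KO nerve (SE 0.51, adjusted p = 0.0796) and -0.88 in CTRL nerve (adjusted p = 0.204). Without KO uncut replicate 2, which was the lower of its group for both, they were -1.99 (adjusted p = 0.00225) and -2.14 (adjusted p = 0.00865) in KO nerve. The Rsad2 difference in CTRL nerve was called without either KO uncut array (adjusted p = 0.0211), which leaves its size as it was.

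With all arrays the other antiviral effectors and the sensors gave no call. Ifit3 lay lower in cut nerve, with 9.12 and 8.85 in KO cut nerve against 9.32 and 9.43 in KO uncut nerve, and 8.80 and 9.02 in CTRL cut nerve against 9.57 and 9.18 in CTRL uncut nerve. Cut and uncut arrays did not overlap in either genotype. The differences were -0.39 (limma adjusted p = 0.102) and -0.47 (adjusted p = 0.0539), and the CTRL difference was called under 3 other settings (adjusted p between 0.0446 and 0.0492) and without CTRL uncut replicate 2 (-0.66, adjusted p = 0.0301). Its family members Ifit1 and Ifit2 lay between -0.12 and 0.17. The RNA sensors Ifih1 and Ddx58, which detect long and short foreign RNA, lay between -0.17 and 0.13. Ifi204 differed by 0.63 in KO nerve and 0.50 in CTRL nerve, with adjusted p of 0.119 and 0.198, and was called in KO nerve without KO uncut replicate 1 (1.01, adjusted p = 0.0357). Ifi202b differed by 0.33 in KO nerve and 0.89 in CTRL nerve (SE 1.28, limma adjusted p = 0.864 and 0.611). That standard error is shared by all groups and so includes its KO split. In a limma fit of the CTRL arrays alone the CTRL difference was called (adjusted p = 0.0338). Ifi35 differed by 0.01 in KO and 0.02 in CTRL nerve. Usp18, which removes Isg15 from proteins and damps the type I receptor, differed by 0.29 in KO nerve and 0.08 in CTRL nerve. Of the dim members, Dhx58 lay between 6.14 and 6.78 in its brightest probe set, Mx1 between 5.17 and 5.91 and Mx2 between 6.25 and 6.65. With no filter Mx1 was called, 0.37 higher in KO cut than KO uncut nerve (adjusted p = 0.0253) and 0.66 higher in CTRL cut than CTRL uncut nerve (adjusted p = 0.00149), and Oas3 was called in CTRL nerve (0.45, adjusted p = 0.0182).

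With all arrays, and 1 probe set per gene, the guanylate-binding proteins were called in neither genotype. Gbp2 read 10.07 and 9.91 in KO cut nerve against 10.32 and 10.07 in KO uncut nerve, and 9.82 and 9.86 in CTRL cut nerve against 10.02 and 10.52 in CTRL uncut nerve. Gbp6 read 8.81 and 9.12 in KO uncut nerve and 8.52 and 9.67 in CTRL uncut nerve, the widest gap between replicates in that group. CTRL uncut replicate 2 was the higher for Gbp2, Gbp3 and Gbp6. Without CTRL uncut replicate 1 all 3 were called lower in CTRL cut nerve: Gbp2 by -0.68 (limma adjusted p = 0.0204), Gbp3 by -0.57 (adjusted p = 0.0327) and Gbp6 by -1.31 (adjusted p = 0.00483), against -0.43, -0.25 and -0.73 with all arrays. A second probe set of Gbp6 was called in CTRL nerve with probe sets as units (-1.02, adjusted p = 0.0481). It read 7.13 and 7.22 in CTRL cut nerve against 7.58 and 8.81 in CTRL uncut nerve. In KO nerve the 3 differences were -0.20, 0.27 and -0.23. These genes are close relatives, and whether their probes share signal was not tested.

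None of the 4 antigen processing genes was called after the cut. Psmb8 and Psmb9 are catalytic subunits of the immunoproteasome, Tap1 carries the cut peptides into the endoplasmic reticulum, and B2m is the light chain of MHC class I. Psmb9 read 8.69 and 8.47 in KO cut nerve against 9.17 and 8.91 in KO uncut nerve, a difference of -0.46 (limma adjusted p = 0.0959). In CTRL nerve it read 8.70 and 8.33 after the cut and 8.54 and 8.97 without it. The KO groups were apart and the CTRL groups overlapped. Psmb8, Tap1 and B2m lay between -0.16 and 0.06 in KO nerve and between -0.13 and 0.19 in CTRL nerve. B2m stayed between 13.78 and 14.01 on all 8 arrays. Cd274, the ligand of the inhibitory receptor PD-1, differed by -0.21 in KO and -0.09 in CTRL nerve and was not called.

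No member was called for a different effect of the cut in knockout and control nerve. The difference of the injury effects, KO minus CTRL, was called for 0 of 30 members, against 0.165% of all tested genes. At an unadjusted p under 0.05 limma gave 0 of 30 members and 731 of all genes. The values ran from -0.56 for Ifi202b to 0.52 for Gbp3, with a median of -0.01 beside -0.05 over all genes, and the lowest adjusted p was 0.952. For 24 members the 95% interval stayed within 1 log2 unit of 0. The median standard error was 0.21, and differences inside these intervals were not resolved.

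At the median, replicates lay further apart for members than for all tested genes. The median distance between the 2 arrays of a group was 0.190 for members in KO cut nerve, 0.219 in CTRL cut nerve, 0.173 in KO uncut nerve and 0.240 in CTRL uncut nerve. Over all tested genes it was 0.135, 0.143, 0.133 and 0.126 in the same groups. Distances over 1 log2 unit were found for Ifi202b in KO cut nerve (3.89), for Ifi202b (3.02), Rsad2 (1.66) and Isg20 (1.64) in KO uncut nerve and for Gbp6 (1.15) in CTRL uncut nerve, and for no member in CTRL cut nerve.

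The rest of the pathway, listed apart from the members, was also read. Of 94 tested pathway genes outside the list, 20 were higher and 4 lower in KO cut than KO uncut nerve, and 37 were higher and 4 lower in CTRL cut than CTRL uncut nerve. That is 25.5% and 43.6%, against the 36% and 40.3% of all genes. By direction, 18.1% of all genes were higher and 17.8% lower in KO nerve, and 22.8% and 17.5% in CTRL nerve. These shares are the background for every list count below. With 1 array left out, from 15 to 24 were higher in KO nerve and from 23 to 36 in CTRL nerve; the lowest counts came without KO uncut replicate 2 and without CTRL uncut replicate 1. Of the 94 genes 85 lay above the array's median on all 8 arrays. Between genotypes, in cut or uncut nerve, and for the difference of injury effects 0 of these 94 genes were called.

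Of the 11 ligands listed in the pathway 3 passed the filter, Ifna1, Il15 and Il18, and 0 were called in KO nerve, or 2 (both lower) without KO cut replicate 1. Il18, which prompts lymphocytes to make type II interferon, fell in CTRL nerve by 0.47 (limma adjusted p = 0.0356), with 8.36 and 8.25 in CTRL cut nerve against 8.69 and 8.87 in CTRL uncut nerve; the call was lost without any 1 of the 4 CTRL arrays. Of 11 receptor and signalling genes, 2 were called higher in KO nerve and 5 in CTRL nerve. Socs3, an inhibitor of Jak signalling, rose by 1.76 in KO nerve (adjusted p = 0.000208) and 1.77 in CTRL nerve (adjusted p = 0.000173). Ifngr2, a chain of the type II receptor, rose by 0.60 in KO and 0.55 in CTRL nerve. Ifnar1, a chain of the type I receptor, rose by 0.57 in CTRL nerve, and Jak1, a kinase of both receptors, by 0.58, while in KO nerve they differed by 0.23 and 0.22 (adjusted p = 0.159 and 0.174). The interaction was not called for either.

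The machinery that senses nucleic acid and induces interferon was read from 17 tested genes. Of these 10 were higher in KO cut nerve and 11 in CTRL cut nerve, with 0 lower, and a median difference of 0.42 in KO and 0.61 in CTRL nerve. With 1 array left out the count was as low as 7 in KO nerve, without KO cut replicate 1 or either KO uncut array, and 8 in CTRL nerve, without CTRL uncut replicate 2. Tlr7, a receptor for single-stranded RNA in endosomes, read 8.65 and 8.31 in KO cut nerve and 8.67 and 8.21 in CTRL cut nerve, against 6.93 and 6.57 in KO uncut and 6.89 and 6.70 in CTRL uncut nerve. It rose by 1.72 in KO nerve (limma adjusted p = 0.000581) and 1.65 in CTRL nerve (adjusted p = 0.000611). Unc93b1, which carries Tlr7 to endosomes, rose by 1.15 in KO and 1.31 in CTRL nerve. Ikbke, a kinase of Irf3 and Irf7, rose by 1.15 and 1.18, and Tlr8 by 1.11 and 1.13. Tlr8, counted among the higher genes, owed its pass of the filter to the cut arrays. All 4 of these lay above their array's median, but only 1 uncut array did. Tlr7 and Tlr8 are abundant in myeloid cells, and the macrophage markers given above moved with them. The part of these cells in the rise was not tested.

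Among 41 further interferon-induced genes 5 were higher and 3 lower in KO cut nerve, and 11 higher and 2 lower in CTRL cut nerve. Of all genes 18.1% were higher and 17.8% lower in KO nerve, and 22.8% and 17.5% in CTRL nerve. The counts are not read as particular to the list, and they rest on single arrays. In KO nerve 3 were higher and 0 lower without KO cut replicate 2, and 3 and 1 without KO uncut replicate 2. In CTRL nerve 6 were higher and 1 lower without CTRL cut replicate 1, 7 and 2 without CTRL cut replicate 2, and 4 and 4 without CTRL uncut replicate 1. Cxcl10, a chemokine for activated T cells, read 8.41 and 8.44 in KO cut nerve and 8.00 and 7.93 in CTRL cut nerve, against 6.54 and 6.88 in KO uncut and 6.49 and 6.78 in CTRL uncut nerve. It rose by 1.71 in KO nerve (limma adjusted p = 0.000119) and 1.33 in CTRL nerve (adjusted p = 0.000348). Cxcl11, a chemokine for the same receptor, went the other way. It fell by 0.70 in KO nerve (adjusted p = 0.0154) and by 0.97 in CTRL nerve (adjusted p = 0.00328), and the KO call was lost without KO cut replicate 2 or KO uncut replicate 2 (adjusted p up to 0.0910). Slfn2, a growth regulator of T cells and macrophages, rose by 1.01 in KO and 1.21 in CTRL nerve.

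**Figure D5:**
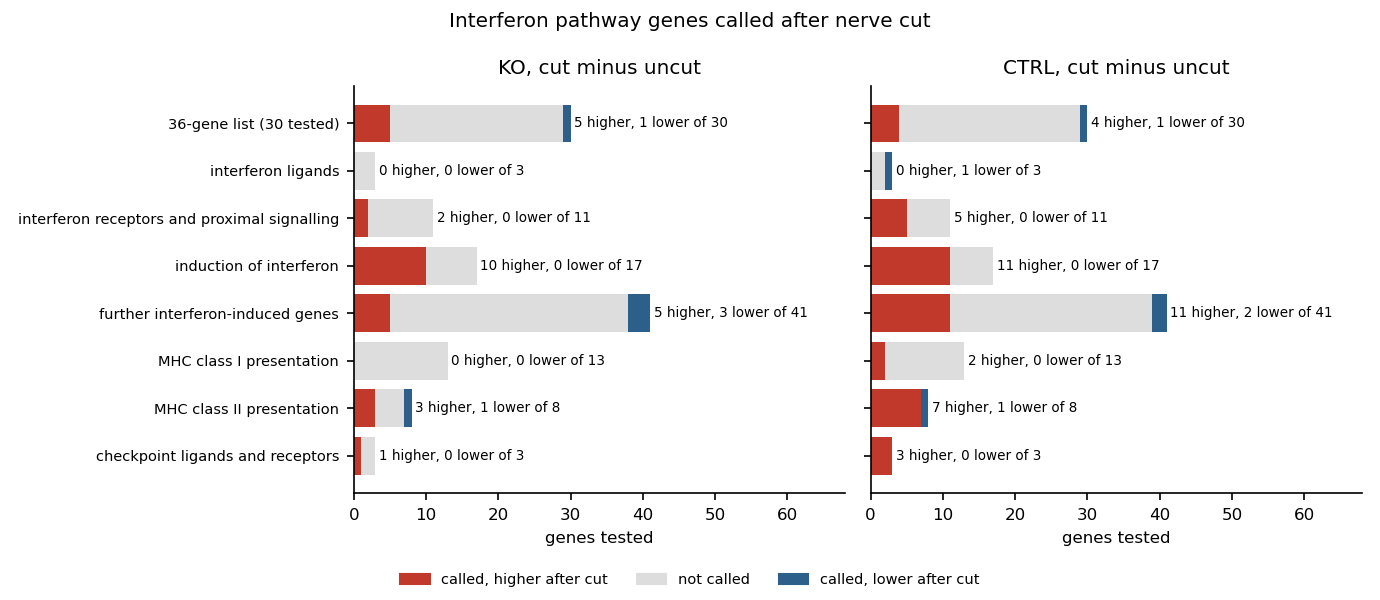
Number of tested genes (horizontal axis) of the 36-gene list and of each further pathway list that were called higher in cut nerve (red), called lower (blue) or not called (grey), in KO and in CTRL nerve. The induction list has 10 of 17 genes higher in KO and 11 of 17 in CTRL nerve, and the members 5 and 4 of 30. Of all tested genes 18.1% are higher in KO and 22.8% in CTRL nerve.

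Of 13 further class I presentation genes 0 were called in KO nerve and 2 in CTRL nerve, both higher and both general chaperones of the endoplasmic reticulum. Pdia3 rose by 0.98 (limma adjusted p = 0.00619) and Calr by 0.33 (adjusted p = 0.0279), and the Calr call was lost without CTRL cut replicate 1 or either CTRL uncut array (adjusted p up to 0.134). For class II presentation 3 of 8 tested genes were higher and 1 lower in KO cut nerve, and 7 higher and 1 lower in CTRL cut nerve. Ctss, the protease that trims the invariant chain, rose by 2.86 in KO nerve (adjusted p = 2.06e-05) and 2.68 in CTRL nerve (adjusted p = 2.24e-05). Ifi30, a thiol reductase of antigen processing that stands on 2 of the lists, rose by 0.88 and 0.94. H2-Oa, which restrains peptide loading, was called higher in both, but it passed the filter through cut arrays alone and all 4 of its uncut arrays lay below their array's median. H2-DMa, a chain of the peptide loading factor, fell by 1.40 in KO and 1.18 in CTRL nerve. In CTRL nerve the calls of the class II chains H2-Aa, H2-Ab1 and H2-Eb1 and of the invariant chain Cd74 were lost without CTRL cut replicate 2, and in KO nerve 6 of the 8 genes were higher without either CTRL uncut array. The difference of the injury effects was called for 0 of these 8 genes. Of the 3 checkpoint genes tested, Havcr2, a receptor on T cells and myeloid cells, was called higher in both genotypes. It read 7.03 and 6.89 in KO cut and 6.78 and 6.21 in CTRL cut nerve, against 4.21 and 4.32 in KO uncut and 4.01 and 3.91 in CTRL uncut nerve. It passed the filter through cut arrays alone, and its uncut values lay below the 25th percentile of their arrays, 4.98 to 5.01, so that the size of the change is uncertain. Lgals9, its ligand, was called in CTRL nerve (0.71, adjusted p = 0.0306), a call lost without any 1 of the 4 CTRL arrays.

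Markers of other cells of the nerve gave the following levels. Among the 5 tested dendritic cell markers, Itgax rose by 2.19 in KO and 2.40 in CTRL nerve and Zbtb46, a factor of classical dendritic cells, fell by 0.53 and 0.48. The Zbtb46 call was lost in KO nerve without either KO cut array or KO uncut replicate 2 (adjusted p up to 0.141), and in CTRL nerve without CTRL cut replicate 1 or either CTRL uncut array (up to 0.158). The list averaged 7.39 and 7.50 in KO cut and 7.42 and 7.52 in CTRL cut nerve, against 7.09 to 7.32 in KO uncut and 7.11 to 7.22 in CTRL uncut nerve. Of 10 T and natural killer cell markers with a probe set 5 passed the filter. They averaged 7.50 and 7.68 in KO cut and 8.03 and 8.14 in CTRL cut nerve. Uncut nerve gave 6.35 to 6.58 in KO and 6.39 and 6.39 in CTRL nerve. The median difference of these 5 markers between KO cut and CTRL cut nerve was -0.10, and 4 of them were not called there. Only Gzmb and Klrd1 were called after the cut, higher in both genotypes. Both passed the filter through cut arrays alone, so the averages are not read as a change of the whole list. Gzmb, the granzyme of killer lymphocytes, was lower in KO cut than in CTRL cut nerve by -2.25 (limma adjusted p = 0.0236), a call lost without any 1 of the 4 CTRL arrays (adjusted p up to 0.132). Of 4 B cell markers with a probe set 0 passed the filter. The 3 neutrophil markers averaged from 7.05 to 7.56 in KO cut, from 7.49 to 7.55 in CTRL cut, from 6.30 to 6.83 in KO uncut and from 6.79 to 8.46 in CTRL uncut nerve. Csf3r, 1 of these markers, passed the filter through cut arrays alone. Of 5 skeletal muscle markers 5 were called higher in KO nerve and 4 in CTRL nerve, with averages from 13.57 to 14.10 in KO cut and from 13.43 to 13.66 in CTRL cut, against 11.85 to 12.64 in KO uncut and 11.72 to 12.64 in CTRL uncut nerve. The CTRL calls were lost without CTRL cut replicate 2 or CTRL uncut replicate 1. Some KO calls were lost without KO cut replicate 2 or KO uncut replicate 2. With 1 array left out, the rise of Ttn in CTRL nerve ran from 1.13 to 2.53. Of 5 fibroblast markers 2 rose in each genotype. The part of any of these cells in the members' values was not tested.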

How the data were processed

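RNA of 8 nerve pools was measured on 1-colour Affymetrix arrays, 2 per group. The authors deposited log2 values for 45101 probe sets, made with RMA and affy per the submitters' processing notes; the sources used here name no versions and no genome build. RMA shrinks the contrast of weakly lit probe sets and takes out any shift that all genes share. Nothing records array batches, and the number of arrays limits the precision. Labels call the 2 samples of a group independent pools.

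Of the probe sets, 34958 carry 1 symbol, 932 several and 9211 none; only the first kind named a gene, and 34754 matched the gene table, with 0 symbols changed. A probe set had to exceed its own array's median in 2 or more arrays (24162 did), and a gene was read from whichever of these averaged highest. With R 4.3.3 and limma 3.58.1 all 8 arrays entered 1 linear model with a term for each group (4 residual and 3.59 prior degrees of freedom, eBayes), the 5 contrasts were tested two-sided, and p-values were adjusted by Benjamini-Hochberg over 12093 genes. The fit was tested on simulated data. Motifs were searched by letters in RefSeq promoter windows.

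The members and lists were chosen with earlier results of these data known. Per-array values are given for members called in any contrast and for the 6 uncalled members with the largest genotype difference in cut nerve, and up to 4 called genes for each pathway list and contrast, with up to 2 for each marker list; other genes named with values were chosen after their values were seen. Alternatives were other filters, other rules for several probe sets, centring or quantile normalization, a trended robust variance, a replicate block, a fit confined to the groups being compared, and leaving out arrays singly (for the pathway and marker lists, added after seeing the data).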

Additional observations from a re-analysis of the deposited data

How the results depend on the processing

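The count of called members stayed at 0 for KO cut against CTRL cut nerve, for KO uncut against CTRL uncut nerve and for the difference of the injury effects under every setting that could be run; the last has no value with only the arrays compared, since it needs all 4 groups. For cut against uncut nerve the count was 6 in KO nerve, 4 to 9 over the other settings and 2 to 7 with 1 array left out; in CTRL nerve it was 5, 4 to 7 and 3 to 6. Irf8 and Oas1a kept their calls under all 18 alternatives in both genotypes, and none of the 7 called members changed direction where it was called. The replicate numbers are not said to mark shared mice, and with 2 numbers they were not taken as pairs. Same-numbered arrays deviated together weakly, with correlations of 0.02 to 0.34 between groups. Cut and uncut nerve of 1 genotype, which alone could share mice, gave 0.15 in KO and 0.18 in CTRL nerve. These values do not settle whether mice were shared, and Ifi202b was low on both KO arrays of replicate number 2. With the replicate block the counts were 9 in KO nerve, adding Isg20, Rsad2 and Stat2, and 6 in CTRL nerve, adding Isg20. With only the arrays compared, Ifi202b, Isg20 and Rsad2 were called in CTRL nerve (limma adjusted p = 0.0338, 0.0352 and 0.0148) and Oasl1 was not. In KO nerve that setting added Stat2 (adjusted p = 0.0372). A fit without both KO arrays of replicate number 2, chosen after seeing the data, called 4 members in KO nerve (Irf8, Oas1a, Isg20 and Rsad2) and 7 in CTRL nerve. The cause of these changes was not tested.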
